A study of Mus musculus with 56 samples.

Results

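Testes of Fmr1 knockout (KO) mice were compared with testes of wild-type (WT) mice by RNA sequencing of whole tissue. All 6 testis samples of the series entered the comparison, 3 of each genotype, out of 56 samples in 19 groups. Both groups are mouse testis and carry no other label than tissue and genotype. The labels give no strain, age, allele or treatment of the animals, and do not say whether a sample is 1 animal or a pool. The question is which genes and which exons differ between the testes of the 2 genotypes, and the liver and muscle samples of the same series (6 each) were used only to ask where testis differs from them. Nothing in the labels says that the samples are separate animals, so p-values measure the spread between these samples.

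Fmr1 encodes FMRP, a protein that binds messenger RNAs and controls their translation, and whose loss causes fragile X syndrome in humans. Testis is one of the organs in which FMRP is most abundant, and enlarged testes are a known feature of males without the protein. A testis is mostly germ cells on their way from spermatogonia through meiosis to spermatids and sperm. Sertoli cells nurse them inside the tubules, and Leydig cells between the tubules make testosterone from cholesterol.

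The 6 libraries held 13752391 to 15879775 counts each over 15960 listed genes, and between 3.32% and 3.53% of the counts fell on the 10 genes with the most. No pair of libraries agreed within sampling noise. Levels below are CPM, counts scaled to a common library total and composition, with the standard deviation (SD) over 3 libraries. A log2 fold change is KO over WT, so a negative value means less in the KO, and its error is the standard error (SE). Genes count as called where the Benjamini-Hochberg adjusted p was under 0.05 in edgeR's quasi-likelihood test over all 15465 genes that passed its count filter. All 48 genes of the spermatid list, all 30 of the Sertoli list and 20 of 22 of the Leydig list were measured well enough to be tested. Of 17 epididymis genes 12 were not listed, and the sum of the rest was 10.95 to 11.3 CPM in WT and 7.52 to 11.2 CPM in KO. In whole tissue, fewer cells of a type and less RNA per cell cannot be told apart.

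Fmr1 itself was low in every KO library. Its level was 37.3, 33.9 and 33.1 CPM in the WT libraries and 8.41, 8.85 and 9.58 CPM in the KO libraries, so the genotypes did not overlap. The log2 fold change was -1.95 ± 0.11 (SE), with an adjusted p of 9.82e-19 by edgeR. On the per-length scale the level was 13.9 ± 1.19 TPM (SD, n = 3) in WT and 3.55 ± 0.29 TPM in KO. The gene lies at chrX:68678536-68717963 in GRCm38. The other members of its list, which holds its paralogs and known partner proteins, were not called, 14 of 15. Fxr1, a paralog that is needed in muscle and heart, stood at 968 ± 43.1 CPM in WT and 1004 ± 35.5 CPM in KO (SD, n = 3), with an adjusted p of 0.703. Fxr2, the other paralog, stood at 84.6 ± 4.51 and 82.3 ± 6.59 CPM, with an adjusted p of 0.817.

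Over the whole table, 661 genes were called, or 4.27% of those tested. Of these 309 were higher in the KO (2.0% of tested genes) and 352 were lower (2.28%), while 2836 genes had an unadjusted p under 0.05. In 584 of the 661 the 3 libraries of 1 genotype all lay above the 3 of the other, as they did for 20.6% of all tested genes. Most changes were small: 127 of the 661 reached 0.5 on the log2 scale in either direction, and 95 of these were lower in the KO. The count depended strongly on single libraries. It was 234, 173 and 827 without WT 1, WT 2 or WT 3, and 1256, 175 and 174 without KO 1, KO 2 or KO 3. Only 71 genes, 23 higher and 48 lower, were called with the complete set and again with each of the 6 libraries left out, and the genes described first come from these.

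Besides Fmr1, 3 of the largest falls in that stable set, those with the most reads, were Agt, Ptgds and Bhmt. Agt, which encodes angiotensinogen, the precursor of angiotensin, measured 172, 177 and 144 CPM in WT and 104, 92.4 and 93.3 CPM in KO. Ptgds, the lipocalin-type prostaglandin D synthase, measured 147, 139 and 120 CPM in WT and 83.2, 69.1 and 74.9 CPM in KO. Bhmt, the betaine-homocysteine methyltransferase that regenerates methionine, measured 103, 106 and 90.0 CPM in WT and 54.1, 54.1 and 67.9 CPM in KO. In all of these the lowest WT library lay well above the highest KO library. Their log2 fold changes were -0.77 ± 0.07, -0.84 ± 0.07 and -0.77 ± 0.08 (SE), with adjusted p of 1.17e-10, 3.55e-11 and 2.52e-09 by edgeR.

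Shank2, a scaffold protein best known from synapses, fell from 17.6, 15.5 and 14.8 CPM to 9.81, 10.2 and 7.54 CPM. Its log2 fold change was -0.80 ± 0.13. Atp5k, a small subunit of the mitochondrial ATP synthase, fell by 1.60 on the log2 scale. Its WT libraries spread widely, at 10.3, 10.8 and 6.12 CPM, against 3.32, 2.36 and 3.32 CPM in the KO. Tmem200b, a membrane protein, fell from 7.5, 5.76 and 4.97 CPM to 3.39, 3.18 and 2.49 CPM, and its adjusted p reached 0.0447 without WT 1. The uncharacterised transcript 4931408D14Rik fell by 0.78 on the log2 scale, from 52.6 ± 11.3 to 30.6 ± 1.58 CPM.

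The 10 largest rises of the stable set were smaller, between 0.44 and 0.71 on the log2 scale. Etv5, a transcription factor needed for self-renewal of spermatogonial stem cells, measured 19.7, 16.9 and 16.3 CPM in WT and 24.1, 26.4 and 24.7 CPM in KO. Epcam, an adhesion molecule present on spermatogonia, measured 26.6, 29.2 and 26.4 CPM in WT and 39.8, 36.4 and 43.6 CPM in KO. Ccnh, cyclin H of the CDK-activating kinase, measured 22.9, 22.8 and 23.8 CPM in WT and 29.7, 38.9 and 34.1 CPM in KO. For each of them the KO libraries were all above the WT libraries. The log2 fold changes were 0.51 ± 0.10 for Etv5, 0.54 ± 0.09 for Epcam and 0.57 ± 0.10 for Ccnh, with adjusted p of 0.00193, 0.000136 and 0.000194 by edgeR. Fmnl1, a formin that builds actin filaments, rose from 31.4 ± 5.52 to 46.2 ± 1.71 CPM. Map4k1, a kinase upstream of JNK, rose from 15.2 ± 0.38 to 21.7 ± 1.79 CPM, with an adjusted p of 0.00264 that reached 0.049 without KO 2. Naa38, a subunit of an N-terminal acetyltransferase, rose by 0.44, and its adjusted p reached 0.0439 without WT 1. The remaining 4 were the antisense transcript Slfn5os, the protein-coding genes Gm17359 and Gm13251 (Zfp992 in RefSeq), and the Y-linked 1700020D14Rik, with log2 fold changes of 0.71, 0.59, 0.44 and 0.46. Whether the counting used strand is not given in the sources used here, so reads of Slfn5os cannot be told apart from those of an overlapping gene.

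**Figure D1:**
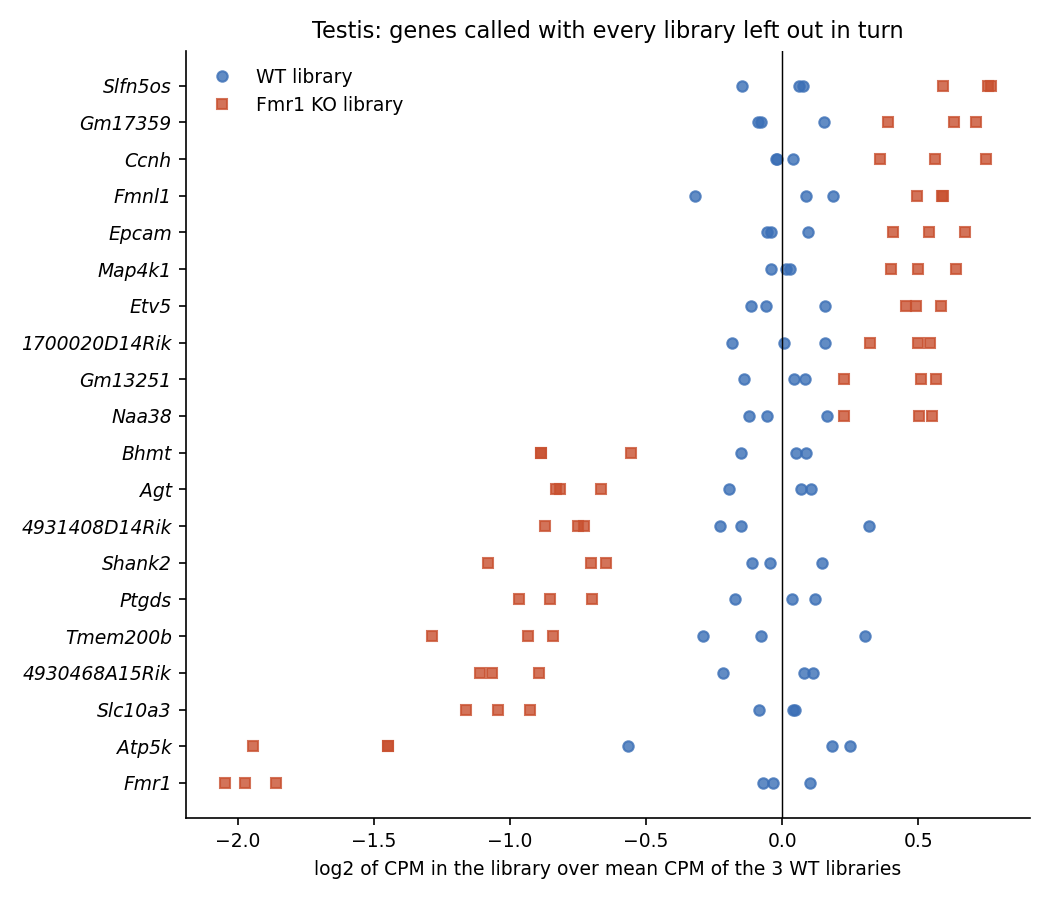
Each row is a gene called in the complete set and with every library left out in turn, and each symbol is 1 library, placed at the log2 of its CPM over the mean CPM of the 3 WT libraries. Fmr1 lies lowest, near -2, and in every row the KO squares and the WT circles are separate.

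Sertoli cell genes were mostly lower in the KO. Of 30 tested members 29 had a negative log2 fold change, and the median was -0.22 against -0.01 over all tested genes. Of the 30, 5 were called lower and none higher, 16.7% against 4.27% of all tested genes. The called members were Cldn3, a claudin of tight junctions, Cst12, a cystatin, Amhr2, the receptor of anti-Müllerian hormone, Gja1, the gap junction protein connexin 43, and Inha, a subunit of the hormone inhibin. Amhr2 measured 232, 189 and 178 CPM in WT and 174, 146 and 144 CPM in KO, a log2 fold change of -0.37 ± 0.07. Gja1 measured 71.4, 61.3 and 53.0 CPM in WT and 50.7, 49.1 and 46.3 CPM in KO, a change of -0.35 ± 0.08. WT 1 was the highest library for both, and the distance from the lowest WT library to the highest KO library was small. The changes of Cldn3, Cst12 and Inha were -0.41, -0.39 and -0.29. All 5 calls were lost without 1 library, at adjusted p of 0.0656 for Amhr2 and 0.141 for Gja1 without WT 1, and 0.0516 for Cldn3, 0.0781 for Cst12 and 0.197 for Inha without KO 2. Sox9, Wt1 and Amh, which define the cell type, had log2 fold changes of -0.31, -0.22 and -0.51 and were not called, with adjusted p of 0.134, 0.154 and 0.363.

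The Sertoli list summed to 2926, 2486 and 2385 CPM in WT 1 to WT 3 and to 2308, 2283 and 2182 CPM in KO 1 to KO 3. All KO sums were below all WT sums, but WT 3 lay nearer to the KO libraries than to WT 1. Without WT 1 the median of the list was -0.12 and 1 member was called, without KO 2 2 members, without KO 3 3 members, and without WT 3 9 members.

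Leydig cell genes of steroid synthesis held the highest share of calls among the cell type lists. Of 20 tested members 7 were called lower and none higher, 35% against 4.27% of all tested genes, with a median of -0.16. Ptgds, described above, had the largest change. Hsd3b1, which makes progesterone and other ketosteroids, measured 76.0, 59.6 and 46.5 CPM in WT and 41.5, 47.1 and 39.0 CPM in KO, and KO 2 lay just above WT 3. Its log2 fold change was -0.51 ± 0.10. Star, which brings cholesterol into mitochondria, measured 64.0, 59.7 and 42.4 CPM in WT and 42.2, 46.2 and 46.3 CPM in KO, so WT 3 lay within the KO range. Cyp17a1, the enzyme that turns progesterone into androgen precursors, measured 333, 261 and 215 CPM in WT and 194, 228 and 233 CPM in KO, again with WT 3 among the KO libraries. Nr5a1, the transcription factor that drives steroid enzyme genes, did not overlap, at 34.4, 36.1 and 31.0 CPM against 27.5, 24.9 and 25.5 CPM. Insl3, the insulin-like hormone of Leydig cells, measured 811, 732 and 672 CPM in WT and 669, 585 and 568 CPM in KO. Tspo, a cholesterol-binding protein of mitochondria, was low, at 6.03 ± 0.56 CPM in WT and 3.69 ± 1.55 CPM in KO (SD, n = 3).

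The calls in Star, Cyp17a1, Insl3, Nr5a1 and Tspo, with adjusted p of 0.0456, 0.0269, 0.00873, 0.0081 and 0.038 by edgeR, were each lost without at least 1 library. The highest adjusted p were 0.374 for Star and 0.457 for Cyp17a1, both without WT 1, 0.116 for Insl3 and 0.398 for Tspo, both without KO 3, and 0.113 for Nr5a1 without WT 2. Hsd3b1 reached 0.0799 without WT 1, while Ptgds stayed called throughout. The other steroid enzymes were not called: Cyp11a1, which opens the pathway, had a log2 fold change of -0.08 ± 0.08, Hsd3b6 -0.11 ± 0.08 and Hsd17b3, which makes testosterone, -0.03 ± 0.10. The number of called members was 2 without WT 1, WT 2 or KO 2, and 3 without KO 3. Without WT 1 the median of the list was -0.07. The summed level ran from 1566 to 2016 CPM in WT and from 1451 to 1497 CPM in KO, with WT 1 highest.

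Other somatic cells showed little. Of 14 genes of peritubular myoid cells, the contractile cells around the tubules, only Ptch1, the receptor of hedgehog ligands, was called. It changed by -0.64 ± 0.17, and its adjusted p of 0.023 rose to 0.20 without WT 1. None of 12 endothelial and none of 11 macrophage genes was called by edgeR, with 0 and 2 at an unadjusted p under 0.05 and none called by DESeq2. The endothelial median was 0.10.

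**Figure D2:**
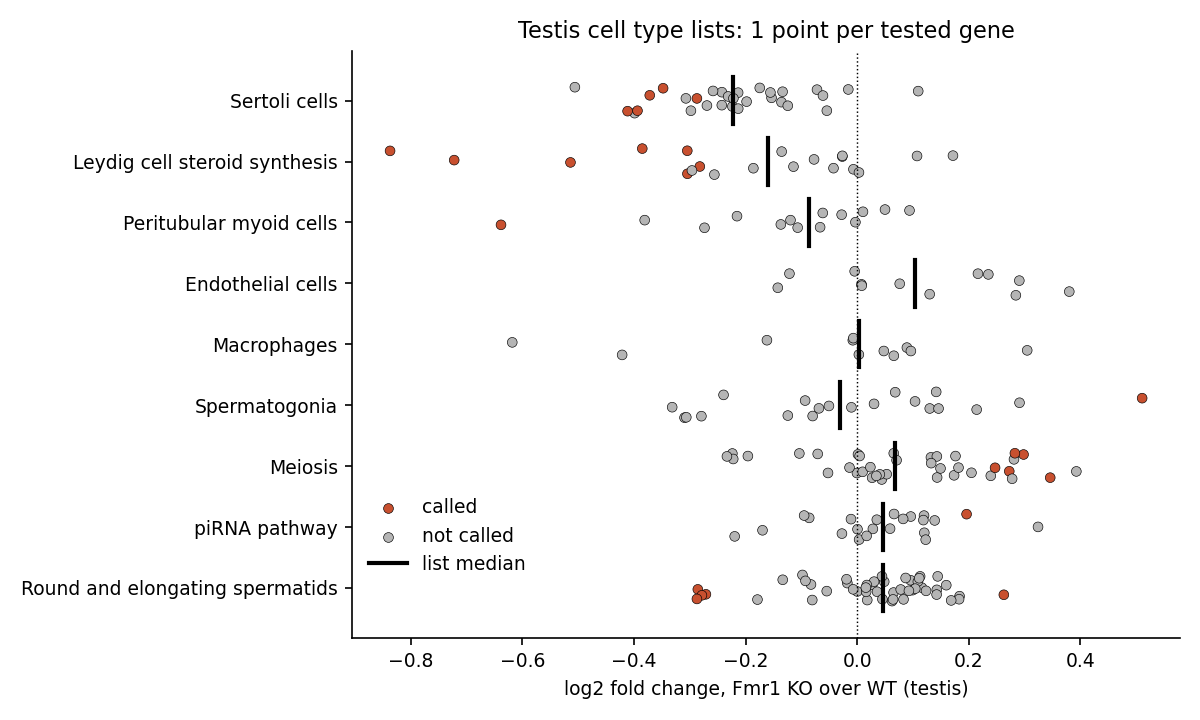
Each point is a tested gene of a cell type or pathway list, placed at its log2 fold change in testis, red where called and grey where not, with a black bar at the list median. The Sertoli and Leydig lists lie to the left, with medians of -0.22 and -0.16, and the 4 red points on the left of the spermatid list are Prm3, Tnp1, Tnp2 and Tssk6.

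Among germ cell genes, a few meiotic genes were called higher and some late spermatid genes lower. The median of the meiosis list was 0.07. Of its 38 tested members 5 were called higher and none lower, 13.2% against 4.27% of all tested genes. They were Sycp1 and Sycp2, which build the synaptonemal complex that holds paired chromosomes together, Hormad1, which marks unpaired chromosome axes, Hfm1, a helicase of crossover formation, and Tex15, which acts in recombination. Sycp1 measured 258, 227 and 244 CPM in WT and 267, 318 and 340 CPM in KO, a log2 fold change of 0.35 ± 0.07. KO 1 was close to WT 1, and KO 2 and KO 3 were clearly higher. KO 1 was the lowest KO library for Sycp2 as well, at 389, 371 and 411 CPM in WT and 432, 488 and 495 CPM in KO. Changes of the other 4 were 0.30 for Hormad1, 0.28 for Hfm1, 0.27 for Sycp2 and 0.25 for Tex15, with adjusted p of 0.0066, 0.0172, 0.00693 and 0.0318. Without WT 2, KO 2 or KO 3 only Sycp1, 1 of the list, was called. Without KO 1 the list held 10 calls and a median of 0.14. None of the 5 genes stayed called with the GC correction described below.

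In the list of round and elongating spermatids 4 of 48 were called lower and 1 higher, 10.4% against 4.27% of all tested genes. The median was 0.05, so the list as a whole did not follow its 4 lowest members. Tnp1 and Tnp2 are transition proteins that replace histones as the sperm nucleus is packed. Tnp1 measured 1679, 1771 and 1728 CPM in WT and 1474, 1417 and 1378 CPM in KO, with no overlap and a log2 fold change of -0.28 ± 0.06. Tnp2 measured 3096, 3416 and 3370 CPM in WT and 3050, 2578 and 2470 CPM in KO, where KO 1 was just under WT 1. Prm3, a protamine-related gene, and Tssk6, a kinase of the late spermatid, changed by -0.27 and -0.29. Zpbp2, a protein of the acrosome, changed by 0.26, from 303 ± 29.1 to 363 ± 23.9 CPM. The number called lower was 0 without WT 2, KO 2 or KO 3, 2 without WT 1 or WT 3, and 7 without KO 1.

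In the spermatogonia list only Etv5 was called, 1 of 20. In the piRNA list, the small RNA pathway that silences transposons in germ cells, only Rnf17 was called, 1 of 22, at 0.20 ± 0.06 with an adjusted p of 0.049 that rose to 0.26 without KO 3. Cell cycle genes (30 tested), cholesterol synthesis genes (24) and chaperones (20) had no call by edgeR, with 3 genes of each list at an unadjusted p under 0.05. DESeq2 called 1 chaperone gene higher and none of the other 2 lists, and without KO 1 edgeR called 3 chaperone genes higher, and 3 cell cycle genes higher and 1 lower.

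The called genes with the highest mean CPM, a scale that does not allow for gene length, moved little. Among those higher, Gstm5, a glutathione transferase, went from 1816 ± 139 to 2130 ± 49.5 CPM, Gm3448 from 1491 ± 98.7 to 1826 ± 116 CPM and Spata4, a testis-specific gene, from 877 ± 43.8 to 1028 ± 43.4 CPM (SD, n = 3). Rb1cc1, which starts autophagy, and Cul3, a ubiquitin ligase scaffold, rose by 0.32 and 0.20 on the log2 scale. Among those lower were, with Tnp1 and Tnp2, the polyubiquitin gene Ubb, from 3141 ± 129 to 2681 ± 202 CPM, the kinase gene Tesk1, by -0.32 ± 0.07, and Prrc2a, by -0.26 ± 0.07. All 10 lost their call without at least 1 library, with the highest adjusted p between 0.053 for Rb1cc1 without KO 2 and 0.296 for Cul3, also without KO 2.

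Transcript GC content went with the direction of change. Called-higher genes had a median GC of 42.6% in their longest transcript, called-lower genes 55.0%, and genes not called 49.5%. With the genes split by GC into 10 bins, the bin of lowest GC had 118 of 1536 genes called higher and 8 lower, and the bin of highest GC had 4 of 1535 called higher and 109 lower. The median log2 fold change went from 0.10 to -0.13 between these bins. The libraries of the KO were not alike in this. In the highest bin the median log2 ratio to the mean of the 6 libraries was 0.06, 0.08 and 0.06 in the WT libraries, 0.05 in KO 1, -0.09 in KO 2 and -0.13 in KO 3. In the lowest bin it was -0.04, -0.08 and -0.03 in the WT libraries, -0.0029 in KO 1, 0.07 in KO 2 and 0.10 in KO 3. The genotypes did not overlap in either bin, but KO 1 lay nearer to the closest WT library than to KO 2 or KO 3.

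**Figure D3:**
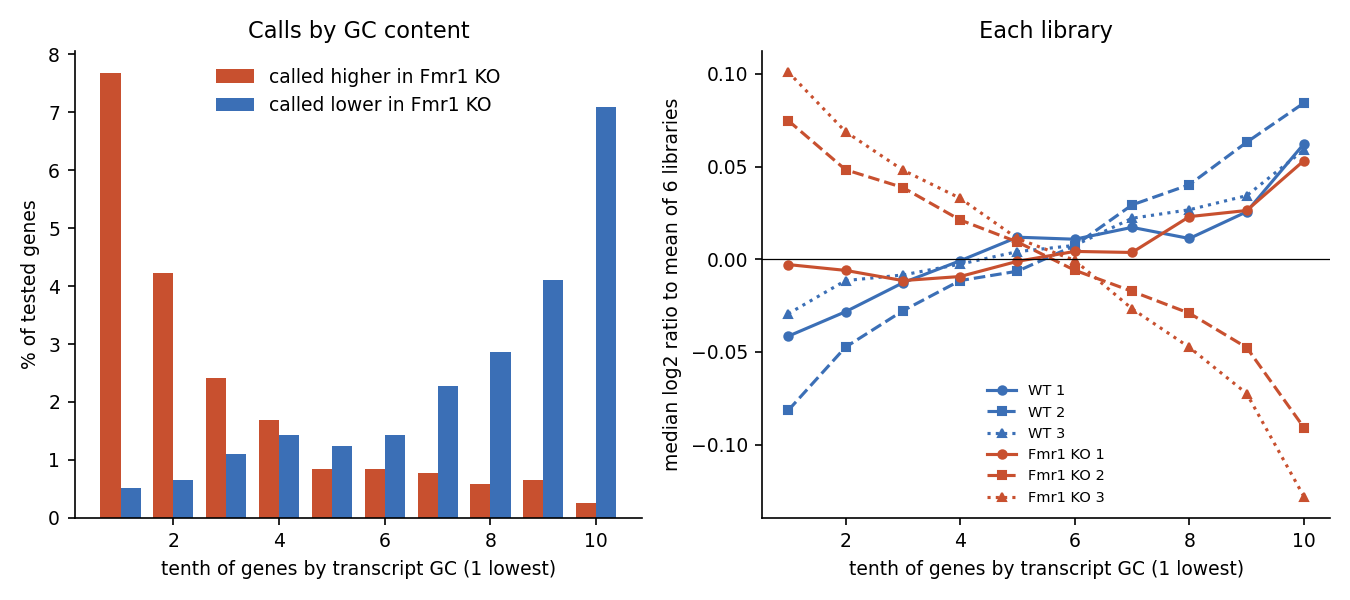
Left, the share of tested genes called higher (red) or lower (blue) in the KO in each of 10 bins of transcript GC, from 7.68% higher in the lowest bin to 7.1% lower in the highest. Right, the median log2 ratio of each library to the mean of all 6 in the same bins, where KO 2 and KO 3 slope down, and KO 1 slopes up like the WT libraries but less steeply, from -0.0029 to 0.05.

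A fit with a GC correction of each library, chosen after this pattern had been seen, called 497 genes, 3.21% of those tested, 280 higher and 217 lower, and 341 of them were among the 661. It called 84 genes again with each library left out. Fmr1 changed by -2.05 in this fit, Agt by -0.68, Ptgds by -0.75, Bhmt by -0.82, Etv5 by 0.55 and Epcam by 0.59, all still called. The Leydig list kept Ptgds, Hsd3b1, Star and Cyp17a1 as called lower, with a median of -0.10, while Insl3 went to -0.08 with an adjusted p of 0.584. The Sertoli list kept Amhr2, Cst12 and Gja1, with a median of -0.17. Without WT 1 the corrected medians were 0.0063 for the Leydig list and -0.07 for the Sertoli list, with 2 members called lower in each. The meiosis list has a median GC of 44.2%, and none of its 5 called genes stayed called. Its median log2 fold change was 0.08 in this fit, against 0.07 without the correction. Sycp1 was at 0.20 with an adjusted p of 0.0689, and 1 other member, Tcfl5, was called. Of the spermatid genes Tnp1 stayed called at -0.26 with an adjusted p of 0.0134, as did Zpbp2 at 0.26. Tnp2 was at -0.17 with an adjusted p of 0.184 and Tssk6 at -0.07 with 0.636. The spermatid list held 3 calls higher and 2 lower in this fit, with Actl7a, Oaz3 and Theg new among them.

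Genes of the translation and respiration machinery were called in both directions. Among 76 ribosomal protein genes 7 were called higher and 4 lower, 14.5% against 4.27% of all tested genes, with a median of 0.06. Among 81 nuclear genes of oxidative phosphorylation 4 were called higher and 6 lower, 12.3%, with a median of 0.03. The 4 called genes of largest change in each list were all lower, and only these are named. Rps29 measured 83.3, 87.2 and 74.6 CPM in WT and 61.4, 60.5 and 62.2 CPM in KO, a change of -0.41 ± 0.07. Rpl28 changed by -0.42 ± 0.08, and both stayed called with each library left out. Rps28 changed by -0.53 and Rplp1 by -0.35, both lost without WT 1 at adjusted p of 0.0579 and 0.0688. Cox8c, a testis-enriched subunit of cytochrome oxidase, measured 176, 179 and 163 CPM in WT and 150, 103 and 111 CPM in KO, a change of -0.51 ± 0.08 that stayed called. Atp5g3 and Cox6b1 changed by -0.48 and -0.45, with overlapping libraries, and lost their calls at adjusted p of 0.234 without WT 1 and 0.299 without KO 2. Ribosomal protein genes have many near-identical pseudogenes, and how reads shared between copies were counted is not given in the sources used here. DESeq2 called 4 of the respiration genes higher and none lower. With 1 library left out edgeR called 0 to 11 higher and 2 to 9 lower, 11 and 9 of them without KO 1. With the GC correction 7 were called higher and 5 lower. The ribosomal calls ran from 1 to 13 higher and 2 to 7 lower with 1 library left out, 13 and 7 of them without KO 1, and stood at 13 higher and 5 lower with the GC correction.

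Of 52 tested splicing factors 3 were called, 5.77% against 4.27% of all tested genes. Tia1, an RNA-binding protein of stress granules, rose from 16.1 ± 0.65 to 21.5 ± 0.94 CPM, with an adjusted p of 0.0115 that reached 0.0824 without KO 3. Elavl3 and Nova2, both best known from neurons, changed by -0.85 and -0.42 from low levels of 4.87 and 12.8 CPM in WT, and lost their calls without WT 2 (0.221) and KO 3 (0.227). Mbnl1, the muscleblind splicing factor named in the title of the series, was at 25.5 ± 2.35 CPM in WT and 25.1 ± 0.91 CPM in KO (SD, n = 3), a log2 fold change of -0.02 ± 0.10. None of 26 tested mRNAs known as FMRP targets in brain was called by edgeR or by DESeq2, and 1 had an unadjusted p under 0.05. Among them Map1b, the microtubule-associated protein gene, stood at 65.9 ± 2.35 and 64.2 ± 4.55 CPM. Of 16 immediate early genes only Jund was called, at -0.36 ± 0.08, and its highest adjusted p was 0.103 without KO 2. Its GC is 67.1%, and with the GC correction its change was -0.09 with an adjusted p of 0.542.

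Genes near Fmr1 on the X chromosome held more calls than the rest of the table. Of the 104 other tested genes that start within 10 Mb of Fmr1, 7 were called lower and 2 higher, 8.65% in all, against 4.90% of 551 X genes farther away and 4.27% of all genes. Slc10a3, a carrier-family protein 5.69 Mb away, measured 6.60, 6.63 and 6.05 CPM in WT and 2.88, 3.12 and 3.39 CPM in KO. The gene 4930468A15Rik, named Cldn34d in RefSeq and 7.90 Mb away, measured 15, 12.2 and 15.3 CPM in WT and 6.57, 7.64 and 6.77 CPM in KO. Both were separate between genotypes and stayed called with each library left out, at log2 fold changes of -1.03 ± 0.19 and -1.01 ± 0.14. In the authors' deposited table Fmr1 (log2 fold change -1.95) and 4930468A15Rik (-1.01) are the only 2 genes marked as decreased, and none is marked as increased. These marks are narrower than the authors' adjusted p, which is under 0.05 for 472 of 9890 genes. Of the 472, 285 are higher and 187 lower in the KO, and 429 were also called here by edgeR.

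The nearest called gene was Aff2, the gene of the FRAXE fragile site, 0.68 Mb from Fmr1. It was low, at 2.50, 3.32 and 2.02 CPM in WT and 0.89, 1.53 and 0.96 CPM in KO, a change of -1.21 ± 0.30. Its adjusted p of 0.0122 rose to 0.161 without WT 2. Fundc2, a mitochondrial outer membrane protein 6.70 Mb away, changed by -0.63, and the other called neighbours were 4930567H17Rik at -0.50, Gm6880 at -0.71, Gm6760 at -0.34, Gm5936 at 0.47 and Gm7073 at 0.39. None of these 6 stayed called with every library left out, with highest adjusted p of 0.25 for Fundc2, 0.18 for 4930567H17Rik, 0.242 for Gm6880, 0.0735 for Gm6760, 0.22 for Gm5936 and 0.256 for Gm7073. They were reached without KO 3 for Fundc2, Gm6880 and Gm6760, without KO 2 for 4930567H17Rik and without WT 2 for Gm5936 and Gm7073. With the GC correction the same window held 8 lower and 1 higher. How much DNA around Fmr1 differs between the KO and WT mice is not in the labels, and its part in these values was not tested.

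**Figure D4:**
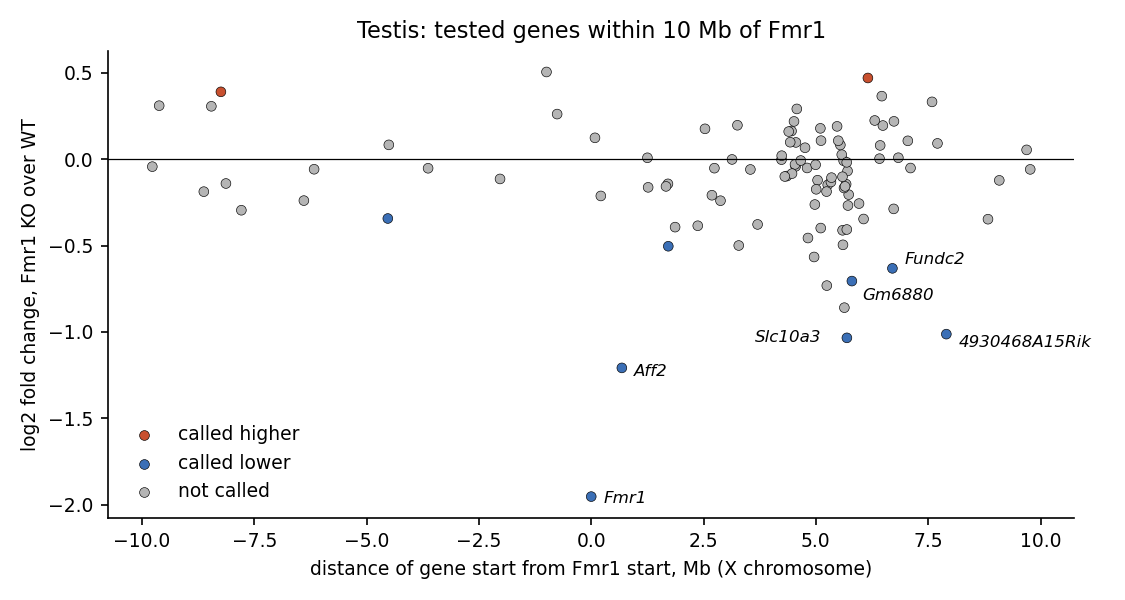
Each point is a tested X-linked gene, placed by the distance of its start from the start of Fmr1 in Mb and by its log2 fold change in testis, blue where called lower, red where called higher and grey where not called. Fmr1 stands at -1.95, and Aff2, Slc10a3 and 4930468A15Rik lie between -1.01 and -1.21.

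The testis response was set against liver and muscle in 1 fit of 18 samples and 10860 genes listed in all 3 tables. The KO difference in testis differed from that in liver for 49 genes, 0.451% of those tested, and from that in muscle for 280 genes, 2.58%. Of 397 genes called in testis and tested here, 5 differed from liver and 64 from muscle. The 397 were picked by the same testis counts, so these numbers cannot be set against the shares over all genes. The other testis calls were not tested in this fit. Fmr1 itself changed by -1.95 in testis, -1.61 in liver and -0.61 in muscle, and testis differed from muscle by -1.33 ± 0.20 with an adjusted p of 0.00216, and from liver by -0.32 ± 0.20 with 0.631. Eno1b, an enolase gene that was far lower in KO than in WT liver and muscle (log2 fold changes of -6.23 and -6.70), was at 49.2 ± 2.65 CPM in WT testis and 49.4 ± 5.00 CPM in KO testis. The difference between testis and liver was 6.26 ± 0.37, with an adjusted p of 6.16e-09 by edgeR. Etv5 was higher in KO testis, had a log2 fold change of -0.69 in liver that was not called (adjusted p 0.17), and differed between them by 1.22 ± 0.20 with an adjusted p of 0.00567. Agt, made in large amounts by liver, had a log2 fold change of -0.06 in liver, and its difference of -0.69 ± 0.17 between testis and liver was not called, with an adjusted p of 0.0865.

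Exon use was compared from junction reads, that is, reads that span a splice junction and so show whether an exon was kept. The splicing tables hold 3 replicates in each of 2 sets and do not say which set is which genotype, so differences are given as replicate set 1 minus set 2. Reads on junctions of Fmr1 exon 9 (79 bases) numbered 5, 15 and 18 in set 1 and 57, 49 and 58 in set 2. Set 1 thus held fewer of these Fmr1 reads in every replicate, as the KO libraries held fewer Fmr1 counts. An inclusion level runs from 0 (always skipped) to 1 (always kept). A call needed an adjusted p under 0.05 in a quasi-binomial test over all events with enough reads and a difference of at least 0.1.

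Skipped exons differed rarely. Of 17176 tested events 15 were called, 0.0873%, with 7 higher in set 1 and 8 in set 2, in 15 genes. The adjusted p was under 0.05 in 65 events at any size of difference, and 1764 had an unadjusted p under 0.05. None of the 15 was called again in all 6 fits that left out 1 replicate, where the count ran from 6 without replicate 2 of set 1 to 21 without replicate 1 of set 1, and was 8 without replicate 3 of set 2. The authors' deposited false discovery rate, with the same minimum difference, marks 150 events, of which 65 had enough reads for the test and 13 were among the 15.

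Of the 15 called exons 7 are coding over their full length, and those of Ankrd36, Ncapd3 and Eif4g3 are not printed. The other 4 are printed from the GENCODE M21 transcripts (GRCm38), so that their length and letters can be seen beside their values. Capitals mark matches to NGCN with C or T at both ends, the 4-letter YGCY element that muscleblind proteins bind, searched on the transcribed strand only, where matches may overlap.
1700008F21Rik exon 3: attttggagtctcttttcaag
Zdhhc1 exon 12: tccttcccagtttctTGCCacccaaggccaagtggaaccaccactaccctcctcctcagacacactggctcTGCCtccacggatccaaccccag
Herc4 exon 14: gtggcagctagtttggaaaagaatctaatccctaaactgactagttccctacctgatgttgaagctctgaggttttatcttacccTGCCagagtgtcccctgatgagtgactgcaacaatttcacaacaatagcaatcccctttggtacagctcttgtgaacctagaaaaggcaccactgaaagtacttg
Map4k1 exon 31: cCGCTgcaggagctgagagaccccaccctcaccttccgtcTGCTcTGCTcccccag

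The exon of 1700008F21Rik (chr8:129109900-129109920, plus strand) is 21 bases long and keeps the reading frame. It was included at 0.40, 0.25 and 0.32 in set 1 and at 0.68, 0.55 and 0.53 in set 2, a difference of -0.27 with an adjusted p of 0.01 by the quasi-binomial F test. It has no match, and 15% of 80 coding exons of like length have at least 1. The gene itself, named Ccdc7b in RefSeq, was among the 71 stable calls. Zdhhc1 encodes a palmitoyltransferase, and its exon (chr8:105473206-105473299, minus strand) is 94 bases long, which is not a multiple of 3. Its inclusion was 0.55, 0.60 and 0.57 in set 1 and 0.61, 0.92 and 0.89 in set 2, so 1 replicate of set 2 lay next to set 1. It has 2 matches, and 69.2% of exons of like length have at least 1.

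The exon of Herc4, a ubiquitin ligase gene (chr10:63289052-63289241, plus strand), is 190 bases long. Its replicates were close to each other, at 0.74, 0.74 and 0.68 in set 1 and 0.85, 0.85 and 0.84 in set 2, a difference of -0.13 that was not called in any of the 6 fits without 1 replicate. It has 1 match, and 91.1% of exons of like length have at least 1. The Map4k1 exon (chr7:29002348-29002403, plus strand) is 56 bases long and was chosen for print after its values were seen, because the gene was also called in expression. Its inclusion was 0.72, 0.67 and 0.70 in set 1 and 0.64, 0.57 and 0.55 in set 2, a difference of 0.11 with an adjusted p of 0.0328. It has 3 matches, and 44.9% of exons of like length have at least 1.

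The other exons among the 8 largest called differences whose sets did not overlap are not coding in the annotation or are not coding over their full length. Arhgap33, a GTPase-activating protein gene, had the largest difference, -0.28, at 0.14, 0.43 and 0.18 in set 1 and 0.55, 0.54 and 0.50 in set 2. It rests on 173 reads in all 6 replicates. Tmbim6, an inhibitor of cell death in the endoplasmic reticulum, had an exon of 36 bases at 0.14 ± 0.026 in set 1 and 0.33 ± 0.095 in set 2 (SD, n = 3), with an adjusted p of 0.00125. In Plxnb2, a semaphorin receptor gene, an exon of 50 bases was always kept in set 2 and at 0.67, 0.81 and 0.95 in set 1. Chpf, an enzyme gene of chondroitin synthesis, was the only 1 with more inclusion in set 1 among the 8 largest whose sets did not overlap, 0.24 ± 0.038 against 0.073 ± 0.043. Dtnb, a dystrobrevin gene, differed by -0.13. Of the coding exons not printed, Ankrd36 differed by 0.17 and Ncapd3 by 0.11, both with overlapping sets, and Eif4g3 by 0.11 without overlap. The adjusted p of Eif4g3, 0.000124 by the quasi-binomial F test, was the lowest of the 15. It was called in 4 of the 6 fits without 1 replicate. Of the 15 called exons 5 have a length divisible by 3, as have 41.8% of the tested exons, and 7 are coding over their full length, against 88.2% of the tested exons.

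**Figure D5:**
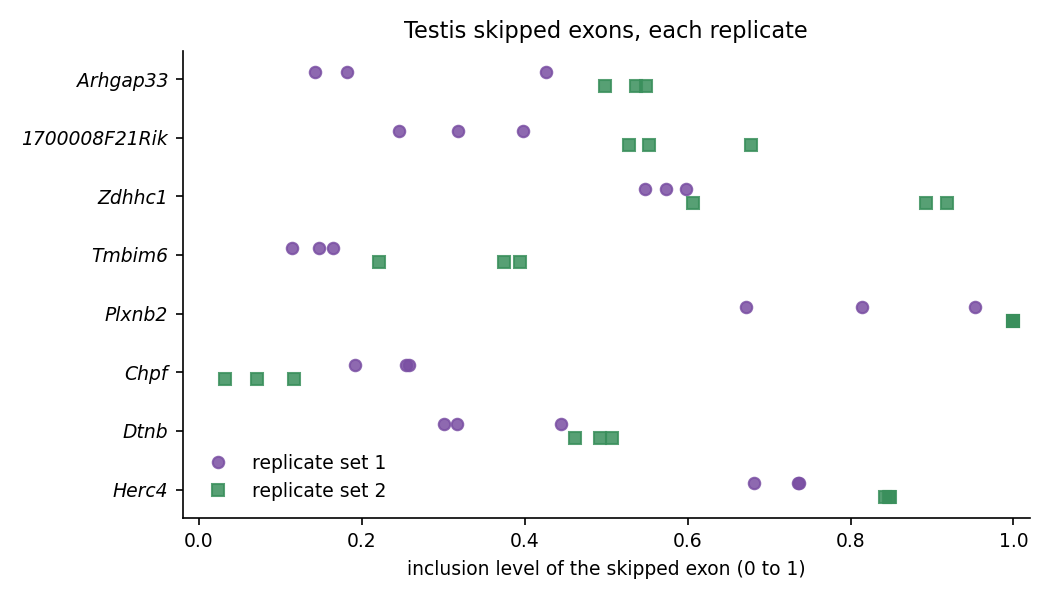
Inclusion level of the 8 skipped exons with the largest called differences whose replicate sets did not overlap, 1 symbol per replicate, circles for replicate set 1 and squares for set 2. Chpf alone has set 1 on the right, and in Zdhhc1 and Dtnb the nearest replicates of the sets almost touch.

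Exon pairs listed as mutually exclusive gave more calls, 154 of 3192 tested, 4.82%, in 134 genes, with 85 positive and 69 negative. In 97.7% of tested pairs, and in 153 of the 154 called, an annotated transcript carries both exons, and only 1 pair was called among those that no transcript carries together. In Fkbp4, a chaperone partner of steroid receptors, the level of the exon pair was 0.70, 0.84 and 0.81 in set 1 and 0.49, 0.52 and 0.62 in set 2. In Fxr1, the Fmr1 paralog, the pair of the exon at chr3:34046966-34047059 was at 0.59, 0.69 and 0.66 in set 1 and 0.53, 0.54 and 0.54 in set 2, a difference of 0.11. The same Fxr1 exon, tested as a skipped exon, was kept in all but 1 of its junction reads, with an adjusted p of 0.521. The number of called pairs ran from 0 without replicate 2 of set 2 to 319 without replicate 1 of set 1. It was 185 without replicate 3 of set 2, 43 and 55 without replicates 2 and 3 of set 1, and 46 without replicate 1 of set 2. The largest pair difference, -0.24, was in Tmbim6 and starts from the same 36-base exon as its skipped exon event.

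No event of the other types was called: 0 of 687 alternative 3′ splice sites, 0 of 476 alternative 5′ splice sites and 0 of 89 retained introns by the quasi-binomial test. At an unadjusted p under 0.05 there were 58, 50 and 8, and the deposited false discovery rate marks 26, 29 and 4. Without replicate 1 of set 1, 2 alternative 3′ splice sites and 1 retained intron were called, and without replicate 1 of set 2, 1 alternative 5′ splice site. Apart from the Fxr1 pair, no event of a splicing factor gene or of Fmr1, Fxr1 or Fxr2 was called. An alternative 3′ splice site of Fmr1 is marked by the false discovery rate in the authors' deposited table, but had 6 to 8 reads per replicate in set 1, too few for the test. Fmr1 exon 12 (63 bases), an exon known to be skipped in part of the transcripts, had 1, 4 and 4 inclusion reads in set 1 and 50, 23 and 35 in set 2, too few in set 1 for the test.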

How the data were processed

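The authors' testis table gives whole-number counts per gene and sample and TPM values, per the file headers, and the same kind of counts was used for liver and muscle. A further 2 columns of counts for muscle were not used. Per the submitters' processing notes the tools were CASAVA, FastQC 0.11.8, Trimmomatic 0.39, Bowtie2 2.3.5, STAR 2.6.1, RSEM 1.3.1 and DESeq2 1.16.1, and the builds GRCm38 and mm10. RSEM gives estimates, and whether the deposited counts were rounded from them is not given in the sources used here. The deposited table also holds the authors' log2 fold changes and p-values. Splicing tables in the rMATS format hold, per the file headers, junction reads and form lengths (other values), p-values, and an inclusion difference (a score) that the authors deposited. Recomputed inclusion differences matched the deposited ones within 0.002 in 100% of skipped exon events.

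Low-count genes were removed by edgeR 4.0.16 (filterByExpr), and the rest were tested by its quasi-likelihood method with TMM scaling in R 4.3.3. DESeq2 1.42.0, limma 3.58.1, other scalings and filters, and leaving out each library were alternatives. Testis was set against liver and muscle with an interaction term in a fit of 18 samples. The GC correction used offsets from a loess fit (span 0.5) of each library on the GC content of the longest GENCODE M21 transcript, known for 99.2% of the genes not called. Junction reads were tested with a quasi-binomial model (moderated dispersion not under 1, at least 20 reads per replicate on average in both sets). The scripts were tested on simulated data. Gene positions are from RefSeq, GRCm38.p6. Figures were drawn with matplotlib 3.10.9.

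The 2 groups were taken from the sample titles. Same-numbered WT and KO libraries did not deviate together (correlations of -0.042, 0.0002 and -0.01), so the numbers were not taken as pairs. Named genes were Fmr1, Eno1b, the 10 largest rises and falls among calls with at least 50 counts on average, no overlap and a call in each of the 6 fits without 1 library, the 5 most abundant calls in each direction, the called genes of each list (the 4 largest where there were more than 6), and called X-linked genes within 10 Mb of Fmr1. Named events were the 8 largest skipped exons and the 2 largest of each other type without overlap. Members and lists were chosen with earlier results of these data known. Star, Cyp17a1, Insl3, Mbnl1, Map1b, Sox9, Wt1, Amh, Cyp11a1, Hsd3b6, Hsd17b3, Fxr1 and Fxr2 were added to these after their values were seen. So were Actl7a, Oaz3, Theg and the exons of Map4k1, Ankrd36, Ncapd3 and Eif4g3.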

Additional observations from a re-analysis of the deposited data

Results flagged for a closer look

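The KO difference of these genes was not the same in testis as in another tissue, by edgeR's test of the difference itself over 10860 genes. Eno1b differed by 6.26 from liver and by 6.71 from muscle on the log2 scale, with adjusted p of 6.16e-09 and 3.64e-08 and a log2 fold change of 0.01 in testis. Fmr1 differed from muscle by -1.33. Etv5 differed from liver by 1.22, and from muscle by 0.36 with an adjusted p of 0.287. Against muscle, Ccnh differed by 0.61 (adjusted p 0.0442), Naa38 by 0.99 (0.0205), Gm13251 by 3.04 (0.000514) and Tmem200b by -2.22 (0.011). In muscle alone the log2 fold changes were -0.04 for Ccnh, -0.55 for Naa38, -2.59 for Gm13251 and 1.22 for Tmem200b, of which those of Naa38 (adjusted p 0.0371) and Gm13251 (0.0192) were called there.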

How the results depend on the processing

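The count of called genes was 661, between 173 and 1256 with 1 library left out, 377 with a replicate block and 127 where only changes past 0.5 on the log2 scale counted. DESeq2 called 481, limma-voom 696, RLE scaling 682, library size alone 590, no filter 670 and a filter of 1 CPM in 3 libraries 701. The balance of directions moved too, at 289 higher and 192 lower by DESeq2 and 220 higher and 370 lower with library size alone. The GC-corrected count of 497 ran from 185 to 830 with 1 library left out. Fmr1 kept its call throughout, between -2.01 and -1.90 with 1 library left out. The block on replicate numbers, which share only a number, called 19 genes for testis minus liver and 77 for testis minus muscle, and no paired analysis was possible for splicing because the sets carry no replicate labels. Testis minus liver ran from 24 to 35 and testis minus muscle from 60 to 193 with 1 testis library left out, and testis minus muscle was 871 in a fit of those 2 tissues alone.

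Of 66 named genes, GC correction ended 24 calls, the replicate block 12, DESeq2 11 (of 56 with an adjusted p) and library size alone 4; no direction of a called gene turned. Skipped exon calls were 150 by the deposited rate, 65 with no minimum difference, 3 at 0.2 and 6 to 21 with 1 replicate left out. Exon pair calls were 275, 348, 9 and 0 to 319, and 1 among pairs never carried together, a choice made after seeing the data. Alternative 3′ sites gave 26 by the deposited rate, 1 with no minimum difference and 0 to 2 with 1 replicate left out, alternative 5′ sites 29, 2 and 0 to 1, and retained introns 4, 1 and 0 to 1. The cause of these shifts was not tested. With 3 samples a genotype, small changes of genes with few counts may have gone uncalled.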

Other observations

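Among genes with fewer than 50 counts on average, chosen here after their values were seen, Gm7367 had 1.81, 2.25 and 8.0 CPM in WT testis and 0.07, 0 and 0 CPM in KO testis, and it was called with each library left out. Itgb4, an integrin of hemidesmosomes, had 0.56, 0.50 and 0.72 CPM in WT and 1.70, 2.99 and 1.09 CPM in KO, with an adjusted p of 0.00556 by edgeR that rose to 0.152 without KO 2. Cml5 had 1.88, 1.75 and 2.52 CPM in WT and 0.89, 0.45 and 0.57 CPM in KO, and stayed called with each library left out, at an adjusted p of up to 0.0374. Gm13306 had 0, 0.31 and 2.67 CPM in WT and 2.14, 6.49 and 4.15 CPM in KO, so that 1 WT library lay within the KO range.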
